A study of Danio rerio with 49 samples.

Results

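The replication timing programme of wild type (WT) zebrafish embryos at the Bud stage, 10 hours post fertilisation (hpf), at the end of gastrulation, was read from 4 S and 4 G1 libraries, 8 of the 49 libraries of the series. All 8 columns named for WT Bud in the deposited table of counts were used, each library was scaled to its mean count, and S was set against G1 of the same stage in every window. The series follows replication timing through early development in WT embryos and in embryos homozygous for omf201, an allele of rif1. The groups used here were WT Bud S and WT Bud G1, with 4 libraries each, and for comparison 4 S and 4 G1 libraries each of WT at 24 hpf and of rif1 omf201/omf201 at Bud. All were of the Tab5 strain and received no other treatment. Nuclei came from whole deyolked embryos, were stained with propidium iodide and were sorted by DNA content, so a value is an average over all cell types of the embryo. Early replication in some cell types and intermediate replication in all of them cannot be told apart. The labels do not say how many embryos went into a sort or whether replicates came from separate clutches, so p-values measure the spread between these libraries, which may be technical.

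A cell copies its genome in a set order during S phase: replication starts at many origins, clusters of which fire early or late, and forks spread from them. Early-copied DNA outnumbers late-copied DNA in nuclei that are midway through S phase, while G1 nuclei hold both alike, so a log2 S to G1 ratio above 0 marks early replication and one below 0 late replication. In many animals early replication goes with gene-rich, accessible chromatin and late replication with heterochromatin, and Rif1 is a protein that delays origins by recruiting a phosphatase.

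The table held 120082 windows on 25 chromosomes, of which 90.3% were 60 kb wide and most started 10 kb after the window before, so neighbouring windows share reads. Summed over 20460 windows that share at most 2 bases, WT Bud S libraries held 8.80 to 15.1 M counts (M, mega) and WT Bud G1 libraries 6.60 to 11.3 M. That gave a mean of 322 to 737 counts per window and a counting error of 3.68% to 5.57% for a single window. Every pair of libraries within a group differed by more than counting error, since chi-square divided by its degrees of freedom lay at 1.33 to 2.80 in the 12 pairs, so each library was kept as a replicate. The labelled fractions were checked first. The SD over 1287 bins of 1 Mb of the log2 ratio, called the amplitude, was 0.116, 0.120, 0.117 and 0.103 in S replicates 1 to 4 and averaged 0.0263 ± 0.00125 in G1 (SD, n = 4). Every S library lay above every G1 library, and replicate 4 was the lowest of the S libraries. The difference of 0.0875 gave an exact permutation p = 0.0286 (two-sided), the smallest that 4 against 4 libraries allow. Whether the omf201 libraries carried the allele could not be read from window counts.

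Single windows covered a narrow range, wider on the late side than on the early side. The 5th and 95th percentiles of the log2 ratio lay at -0.330 ± 0.0215 and 0.234 ± 0.00939 in S libraries, against -0.140 ± 0.0108 and 0.135 ± 0.00769 in G1 libraries (SD, n = 4 each). The span between them was 0.564 ± 0.0309 in S and 0.275 ± 0.0184 in G1, with no overlap between the fractions and an exact permutation p = 0.0286. In the mean of the 4 S libraries the latest 1% of windows lay under a ratio of 0.760 and the earliest 1% above 1.19. The distribution in S leaned to the late side, with a skew of -0.456 ± 0.0389 in S and -0.0720 ± 0.0441 in G1 (exact permutation p = 0.0286). The S libraries peaked on the early side of 0 and had a long late tail. Between replicates, the SD of a window had a median of 0.0606 in S and 0.0637 in G1.

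**Figure D1:**
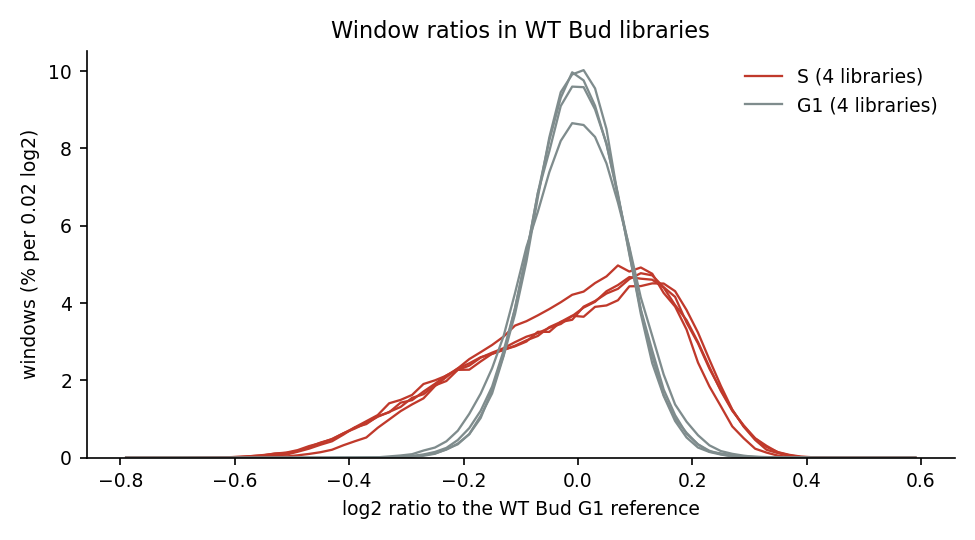
Share of windows (percent per 0.02 log2, y axis) by log2 ratio to the WT Bud G1 reference (x axis), 1 line per library, 4 S and 4 G1 libraries. The S lines are wide and lean to the left, with a 5th to 95th percentile span of 0.564, while the G1 lines are narrow and centred on 0, with a span of 0.275.

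The order of replication was shared by the 4 S libraries. Over the bins of 1 Mb, S profiles correlated with each other at 0.955 to 0.970 when set against 1 G1 reference, and at 0.946 to 0.960 when each was set against the G1 library of its own number; these are descriptions across bins, which are not replicates. Timing changed over distances of less than 1 Mb. The correlation between windows of 1 S library was 0.710 ± 0.0299 at a distance of 100 kb, 0.442 ± 0.0147 at 250 kb and 0.185 ± 0.00415 at 500 kb (SD, n = 4). It was 0.0924 ± 0.00479 at 1000 kb and 0.0261 ± 0.00636 at 5000 kb. In G1 libraries it was 0.0529 ± 0.0243 at 100 kb. Windows 100 kb apart thus had like values in S libraries and nearly unrelated ones in G1 libraries, and little of the likeness was left at 1 Mb.

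Each window was tested for a difference between S and G1 with the quasi-likelihood test of edgeR (p-values adjusted over all windows by the Benjamini-Hochberg method), and called early or late at an adjusted p under 0.05. Of all windows tested 58.2% were called: 36360 were early (30.3%) and 33528 were late (27.9%). Early windows had a median log2 ratio of 0.163, a ratio of 1.12, and late windows a median of -0.215, a ratio of 0.861. Late windows thus stood farther from the genome average than early ones. The other 41.8% of windows were not called, which does not place them in mid S phase, since their median standard error of 0.0482 log2 hides small differences. In 44.3% of windows the 4 S and 4 G1 libraries did not overlap at all, with S above in 21.9% and below in 22.3%.

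Called windows lay in runs, which the layout of the windows brings about in part. Most windows of 60 kb start 10 kb apart, so neighbours share reads and tend to be called together. This also bears on the number and length of domains. An early or late domain was taken as at least 5 called windows of 1 sign in a row, which gave 1917 early and 1806 late domains holding 52.6% of all windows. Both kinds had a median length of 180 kb, with quartiles of 130 and 280 kb for early and 130 and 270 kb for late domains. Lengths over 1 Mb were reached by 8 early and 6 late domains, but this count was not stable: early ones numbered 3 with TMM scaling, 0 without S replicate 1 or 2 or G1 replicate 2 or 4, and 2 to 4 without any other library. Late ones numbered 2 without G1 replicate 2, and 3 without S replicate 2 or G1 replicate 3. A single uncalled window ends such a run, and neighbouring domains of 1 sign often touch. When runs of 1 sign were joined across up to 5 uncalled windows, 1526 early and 1730 late domains were left, with medians of 230 and 200 kb. Of these, 41 early and 13 late ones were over 1 Mb long. The share of windows in domains was 59.5% after joining and 30.5% with at least 20 windows in a run, so numbers, lengths and this share all depend on the definition.

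The 5 longest early domains are described first. They were found with the WT Bud libraries, so their values there carry no test, and the tests given are those of WT 24 hpf and omf201 Bud libraries. Positions are those of the deposited table (GRCz11 per the submitters' processing notes). The longest spanned 1.79 Mb on chromosome 22 (9940000 to 11730001), with mean log2 ratios of 0.194, 0.220, 0.191 and 0.149 in S replicates 1 to 4, against -0.0172 to 0.0117 in G1. All 4 S libraries were above all G1 libraries. Its length depended on the settings: the longest early domain spanned 1150 kb with TMM scaling of all 8 libraries, 1600 kb when S replicate 3 was left out and 880 to 1150 kb when any other library was left out.

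Chromosome 22 also held the second longest early domain (20100000 to 21260001). Its mean log2 ratios were 0.205, 0.212, 0.152 and 0.163 in S replicates 1 to 4 and -0.0247 to 0.0206 in G1, with S replicates 1 and 2 above the other 2. On chromosome 20 (34230000 to 35370001) the S libraries had 0.190, 0.190, 0.185 and 0.147, against -0.0168 to 0.0178 in G1; replicate 4 stood apart below the rest. The chromosome 14 domain (31210000 to 32310001) was the most even, at 0.179, 0.196, 0.175 and 0.176 in S and -0.0103 to 0.0162 in G1. The chromosome 3 domain (31810000 to 32880001) had 0.221, 0.226, 0.147 and 0.158 in S and -0.0230 to 0.0292 in G1, the widest spread between S libraries of the 5, still without overlap between fractions.

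The 5 longest late domains lay farther from 0. The longest, 1.34 Mb on chromosome 8 (37320000 to 38660001), had mean log2 ratios of -0.309, -0.256, -0.245 and -0.236 in S replicates 1 to 4, against -0.0569 to 0.0409 in G1. On chromosome 17 (13210000 to 14470001) they were -0.269, -0.285, -0.221 and -0.252 in S and -0.00843 to 0.0112 in G1. On chromosome 19 (36850000 to 38110001) they were -0.228, -0.258, -0.210 and -0.245 in S and -0.0252 to 0.0138 in G1. In these 3 domains every S library lay well below every G1 library. Chromosome 18 held a late domain of 1.25 Mb (9350000 to 10600001) with -0.318, -0.306, -0.278 and -0.272 in S and -0.0216 to 0.0255 in G1. The chromosome 11 domain (9070000 to 10240001) was the latest of the 5, at -0.336, -0.334, -0.351 and -0.282 in S and -0.0329 to 0.0241 in G1. None of these 5 late domains overlapped between fractions. They were found with the same libraries, so this is no test.

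**Figure D2:**
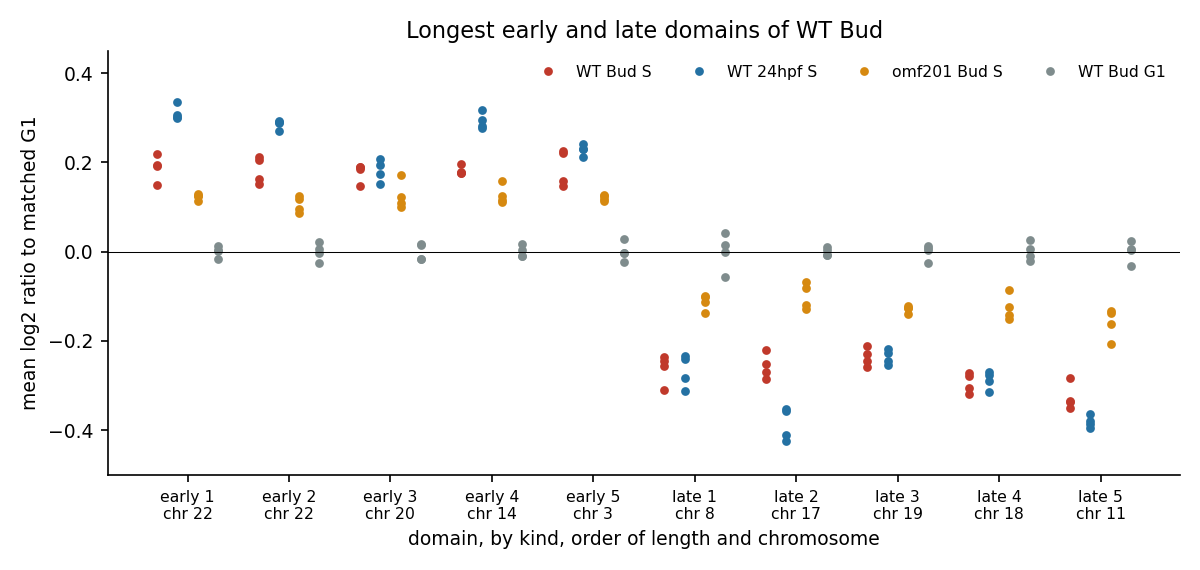
Mean log2 ratio to the matched G1 libraries (y axis) in the 5 longest early and 5 longest late domains of WT Bud (x axis, in order of length with the chromosome). Each point is 1 library: WT Bud S, WT 24 hpf S, omf201 Bud S and WT Bud G1. Points of WT 24 hpf and omf201 Bud S lie on the same side of 0 as those of WT Bud S in all 10 domains, and the omf201 Bud mean is nearer to 0 than the WT Bud mean in each. The domains were picked by their WT Bud values, which draws these away from 0, so the contrast is no test of genotype.

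All 10 domains kept their sign in libraries that had no part in finding them. At 24 hpf the mean log2 ratio was 0.311 ± 0.0173 and 0.286 ± 0.0106 in the early domains of chromosome 22, 0.182 ± 0.0246 on chromosome 20, 0.293 ± 0.0181 on chromosome 14 and 0.229 ± 0.0123 on chromosome 3 (SD, n = 4). The late domains of chromosomes 8, 17, 19, 18 and 11 had -0.267 ± 0.0369, -0.386 ± 0.0372, -0.236 ± 0.0162, -0.287 ± 0.0194 and -0.381 ± 0.0127 at that stage. In omf201 Bud the early domains had means of 0.106 to 0.128 and the late domains means of -0.0993 to -0.159. S and G1 did not overlap in any of these 20 comparisons, each with an exact permutation p = 0.0286 and 0.0286 after adjustment over the 20.

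The difference between stages was tested window by window as an interaction in edgeR, which called 25.3% of all windows (12.6% in each direction). In the early domains on chromosomes 22 and 14, 34.3% to 38.5% of windows had a lower ratio in WT Bud than in WT 24 hpf and none a higher one. In the late domain on chromosome 17, 32.2% of windows had a higher ratio in WT Bud, which is less late, and none a lower one. In the late domain on chromosome 18, 1.67% of windows had a higher and 3.33% a lower ratio in WT Bud, and in that on chromosome 11 it was 1.79% higher and none lower. In the late domain on chromosome 19, 16.5% of windows were higher and 21.5% lower in WT Bud. The early domain on chromosome 3 had 22.5% lower and 12.7% higher, the latter near the 12.6% of all windows. The early domain on chromosome 20 had 5.50% higher and 6.42% lower, and the late domain on chromosome 8 had 8.59% higher and none lower. These shares were under the 12.6% of all windows in each direction.

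Over all domains, most kept the sign of their mean in the other libraries, for which no background share is given. Most were also called the same way in most of their windows in WT 24 hpf, but not in omf201 Bud. There 857 early and 683 late domains had no window called the same way. Of the 1917 early domains, 89.4% had a mean above 0 in WT 24 hpf and 82.9% in omf201 Bud. In WT 24 hpf, 77.9% had most of their windows called early, where 78.6% of all windows were called in either direction and 38.3% early. In omf201 Bud it was 26.8% of domains, where 25.2% of all windows were called in either direction and 12.6% early. Of the 1806 late domains, 93.1% had a mean below 0 in WT 24 hpf and 91.6% in omf201 Bud. Most windows were called late for 85.2% of them in WT 24 hpf, where 40.3% of all windows were called late. In omf201 Bud it was 30.5% of them, where 12.6% of all windows were called late. The shares of all windows count single windows, so they are no like background for shares of domains, which was not computed.

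Counted by window, 81.3% of the windows early in WT Bud were early in WT 24 hpf, and they made up 64.2% of the longer 24 hpf list. Of the windows late in WT Bud, 86.6% were late in WT 24 hpf, which is 60.1% of the 24 hpf list. The WT 24 hpf libraries were mostly deeper, with mean counts per window of 622 to 1097 in S and 842 to 1300 in G1. Those of WT Bud had 322 to 737. How far depth made the 24 hpf list longer was not tested. The windows early in omf201 Bud were early in WT Bud in 77.0% of cases, and the late ones late in 78.8%. Of all windows 30.3% were early and 27.9% late in WT Bud. The omf201 Bud windows covered only 32.1% and 35.4% of the WT Bud lists, where 12.6% of all windows were called in each direction in omf201 Bud. Mean counts per window were 288 to 722 in omf201 Bud S and 411 to 695 in its G1. In WT Bud they were 430 to 737 in S and 322 to 554 in G1. How far depth bears on the omf201 Bud lists was not tested. Calls of the opposite sign were rare. At 24 hpf they were 3.59% of early and 3.25% of late WT Bud windows, where 40.3% and 38.3% of all windows were called late and early. In omf201 Bud they were 0.509% and 0.197%, with only 12.6% of all windows called in each direction.

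A minority of domains were on the other side at 24 hpf: 85 early domains had most of their windows called late there, and 70 late domains had most called early. The longest of each kind are given as a description, chosen after their values were seen. An early domain on chromosome 11 (6950000 to 7330001) had log2 ratios of 0.227, 0.207, 0.172 and 0.214 in WT Bud S replicates 1 to 4, against -0.0847, -0.149, -0.129 and -0.140 in WT 24 hpf S. A second on chromosome 20 (27580000 to 27910001) had 0.156, 0.220, 0.179 and 0.140 in WT Bud S, against -0.239, -0.262, -0.259 and -0.261 in WT 24 hpf S. Both were early in all 4 WT Bud libraries and late in all 4 of WT 24 hpf. In omf201 Bud S they averaged 0.118 ± 0.0352 and 0.118 ± 0.0208 (SD, n = 4), on the WT Bud side. In the other direction, a domain near an end of chromosome 24 (1440000 to 2010001) had -0.308, -0.260, -0.320 and -0.259 in WT Bud S, against 0.116, 0.119, 0.110 and 0.119 in WT 24 hpf S. It was late at Bud and early at 24 hpf in every library, with G1 libraries between -0.0711 and 0.0391 at Bud.

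The profile was then smoothed with a spline. Its local maxima and minima of at least 0.1 log2 prominence were taken as peaks and valleys, which are earlier or later than their surroundings. WT Bud had 765 peaks and 772 valleys. Neighbouring peaks lay a median of 1440 kb apart (quartiles 1070 and 2050 kb) and neighbouring valleys 1470 kb (1090 and 2000 kb). Each replicate alone gave 771 to 806 peaks. A peak was found again within 100 kb in 82.4% to 87.5% of cases per replicate and in all 4 replicates for 465 peaks (60.8%). For valleys it was 86.1% to 92.6% per replicate and 545 in all 4 (70.6%). The replicates made up the mean profile that gave these features, so these rates are not an independent check. As a background, 12.8% of all windows lay within 100 kb of a WT Bud peak and 12.4% that near to a valley. The position of a feature varied by a median SD of 27.5 kb for peaks and 25.8 kb for valleys between replicates.

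Peaks were more alike in height than valleys were in depth. Peak heights had a median log2 ratio of 0.15 and an SD of 0.0786 over peaks, with 5th and 95th percentiles of -0.0272 and 0.213. Valleys had a median of -0.169 and an SD of 0.122, with percentiles of -0.372 and 0.0223. Between neighbouring peaks and valleys, in either order, the profile changed by a median of 0.285 log2 over a median of 640 kb. The quartiles of this distance were 460 and 1005 kb, over 1487 such steps. The median slope was 0.419 log2 per Mb, with a 95th percentile of 0.776.

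**Figure D3:**
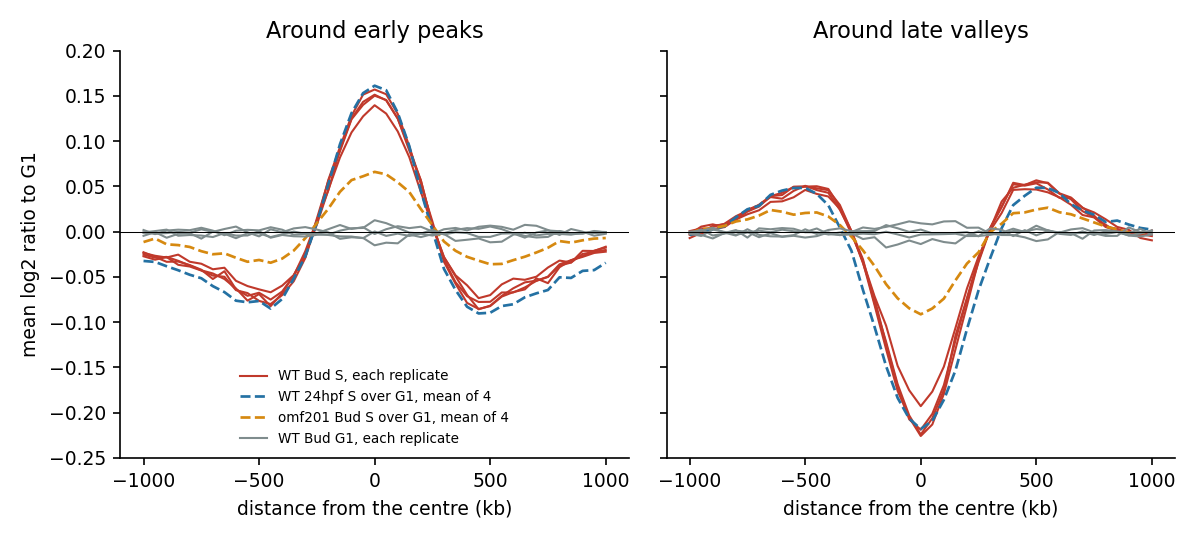
Mean unsmoothed log2 ratio to G1 (y axis) by distance in kb from the centre (x axis) of the 765 WT Bud peaks and the 772 WT Bud valleys. Solid lines are single WT Bud S and G1 libraries, and dashed lines are the means of 4 S over 4 G1 libraries in WT 24 hpf and omf201 Bud. WT Bud S reaches 0.15 at peaks and -0.215 at valleys, WT 24 hpf reaches 0.161 and -0.218, and omf201 Bud reaches 0.0661 and -0.0913. At 250 kb from the valleys WT 24 hpf is lower than WT Bud S. Only 61.7% of these valleys had a WT 24 hpf valley within 100 kb, so the width of valleys at 24 hpf is not shown. Peaks and valleys were picked from the WT Bud profile, which draws the WT Bud values there away from 0.

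Averaged without smoothing, the S libraries stood at 0.15 ± 0.00726 at the centre of peaks and at 0.0114 ± 0.00287 and 0.00796 ± 0.00228 at 250 kb to either side (SD, n = 4). At 500 kb to either side they were at -0.0692 ± 0.00536 and -0.0779 ± 0.00564. At the centre of valleys they were at -0.215 ± 0.0153, and at 0.0491 ± 0.00204 and 0.0529 ± 0.00440 at 500 kb to either side. G1 libraries stayed between -0.0151 and 0.0127 at the same centres of peaks. At the WT Bud peaks WT 24 hpf averaged 0.161 and omf201 Bud 0.0661, and at the valleys -0.218 and -0.0913. As these sites were picked from the WT Bud profile, the differences from WT Bud there are a description with no test. At 250 kb to either side of the valleys WT Bud S stood at -0.0329 ± 0.00183 and -0.0307 ± 0.00271 (SD, n = 4), against -0.0645 and -0.0649 in the WT 24 hpf mean. Not every WT Bud valley had a WT 24 hpf valley near it, so this does not measure the width of valleys at 24 hpf.

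Peaks were also called in the other profiles in the same way. Of the WT Bud peaks 58.2% had a WT 24 hpf peak within 100 kb, which was 55.3% of the 805 peaks of that stage, where 13.5% of all windows lay so near to one. Of the valleys 61.7% were matched, 59.4% of those at 24 hpf, where 12.8% of windows lay near one. In omf201 Bud, with 593 peaks and 599 valleys, 40.0% of WT Bud peaks and 44.2% of valleys were matched, or 51.6% and 56.9% of the omf201 lists. There 9.89% and 9.59% of windows lay as near to a feature. The same prominence of 0.1 log2 was asked of every profile, while the amplitude was 0.0725 in omf201 Bud S and 0.114 in WT Bud S. In WT Bud itself prominences of 0.05 and 0.2 gave 950 and 517 peaks. How far the fixed cut-off set the counts and matches in omf201 Bud was not tested.

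The 5 highest peaks all had smoothed ratios of 1.17 or 1.18. The values given are means over the windows within 100 kb of a summit; as peaks and valleys were picked from the WT Bud profile, their distance from G1 there is a description with no test. The highest, on chromosome 21 at 17170000, had log2 ratios of 0.282, 0.230, 0.268 and 0.220 in S replicates 1 to 4, against -0.0218 to 0.0583 in G1. On chromosome 17 at 24700000 they were 0.239, 0.306, 0.233 and 0.207 in S and -0.0222 to 0.0540 in G1. At both summits the S libraries varied among themselves by less than their distance from G1. On chromosome 2 at 43630000 the S libraries had 0.230, 0.285, 0.270 and 0.193, against -0.0344 to 0.0441 in G1. On chromosome 11 at 25110000 they had 0.192, 0.268, 0.264 and 0.232, against -0.0311 to 0.0477 in G1. On chromosome 15 at 17110000 they had 0.270, 0.249, 0.201 and 0.205, against -0.0298 to 0.0394 in G1. No S replicate was the highest at all 5 summits.

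All of these summits but that of chromosome 15 passed as early at 24 hpf. WT 24 hpf averaged 0.210 ± 0.0372 at the chromosome 21 summit, 0.258 ± 0.0216 on chromosome 17, 0.254 ± 0.0245 on chromosome 2 and 0.311 ± 0.0313 on chromosome 11 (SD, n = 4), each with an exact permutation p = 0.0286, or 0.0381 after adjustment over 20 tests of peaks and valleys. The chromosome 15 summit averaged 0.137 ± 0.0649 in WT 24 hpf, with p = 0.0571 by the exact permutation test and 0.0602 adjusted. In omf201 Bud the chromosome 17 summit stood at 0.0296, 0.0485, 0.0178 and 0.0257 in S replicates 1 to 4, a mean of 0.0304 ± 0.0130, and did not differ from G1 beyond the spread of the libraries (exact permutation p = 0.257). The summits of chromosomes 21 and 11 averaged 0.0882 ± 0.0278 and 0.129 ± 0.0267 there (adjusted exact p = 0.0381), and those of chromosomes 2 and 15 averaged 0.107 ± 0.0309 and 0.0859 ± 0.0448 (adjusted exact p = 0.0602).

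The 5 lowest valleys had smoothed ratios of 0.728 to 0.747. The lowest, on chromosome 1 at 4570000, had log2 ratios of -0.448, -0.445, -0.440 and -0.443 in S replicates 1 to 4, against -0.0342 to 0.0514 in G1. On chromosome 14 at 44090000 they were -0.416, -0.446, -0.514 and -0.382 in S and -0.0876 to 0.0304 in G1. The first was nearly equal in the 4 S libraries, while the second varied by more than 0.1 between them. Chromosome 18 held 2 of the 5: at 4120000 the S libraries had -0.439, -0.452, -0.450 and -0.374, against -0.0770 to 0.0485 in G1. At 29000000 they had -0.450, -0.455, -0.437 and -0.388, against -0.0384 to 0.0300 in G1. On chromosome 12 at 40810000 they had -0.440, -0.359, -0.518 and -0.423, against -0.0643 to 0.0905 in G1. The chromosome 12 valley had the widest spread in both fractions.

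All 5 valleys were late at 24 hpf, with means of -0.392 to -0.448 in WT 24 hpf, each with an exact permutation p = 0.0286, or 0.0381 adjusted. In omf201 Bud the chromosome 1 and 14 valleys averaged -0.261 ± 0.0833 and -0.267 ± 0.0230, the valley at 4120000 of chromosome 18 -0.188 ± 0.0340 and the chromosome 12 valley -0.224 ± 0.0719 (SD, n = 4; adjusted exact p = 0.0381). The valley at 29000000 of chromosome 18 averaged -0.0965 ± 0.0354 in omf201 Bud (adjusted exact p = 0.0602), against -0.433 ± 0.0307 in WT Bud S. It was the shallowest of the 5 in omf201 Bud.

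Whole chromosomes differed in level, by much less than single regions. A chromosome's level is the mean log2 scaled count of its windows minus that of all windows, set against the G1 mean. Of 25 chromosomes 17 differed between S and G1 (68%; two-sided exact permutation test, adjusted p = 0.0420), 9 higher and 8 lower in S. With libraries paired by replicate number the sign-flip test of 4 pairs cannot go below an exact p = 0.125, so no chromosome, arm or end passes in it. The highest was chromosome 22, with 0.0431, 0.0587, 0.0267 and 0.0382 in S replicates 1 to 4, followed by chromosome 23 with a mean of 0.0288 ± 0.00464 and chromosome 5 with 0.0240 ± 0.00233 (SD, n = 4). Chromosome 22 was also the most variable between S libraries. The lowest was chromosome 18, with -0.0481, -0.0491, -0.0460 and -0.0458 in the same order, followed by chromosome 12 at -0.0331 ± 0.00302 and chromosome 1 at -0.0320 ± 0.00212. The median SD between S replicates of a chromosome was 0.00374, and the levels of chromosomes 12 and 1 differed by less than that.

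The shares of called windows followed the same extremes. Chromosome 22 had 40.1% early and 18.2% late windows, and chromosome 18 had 25.5% early and 38.2% late windows, where 30.3% and 27.9% of all windows were early and late. The lowest share of early windows was 23.8%, on chromosome 24. No chromosome was early or late throughout, and each held between 5.29 and 7.87 peaks per 10 Mb of windows.

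**Figure D4:**
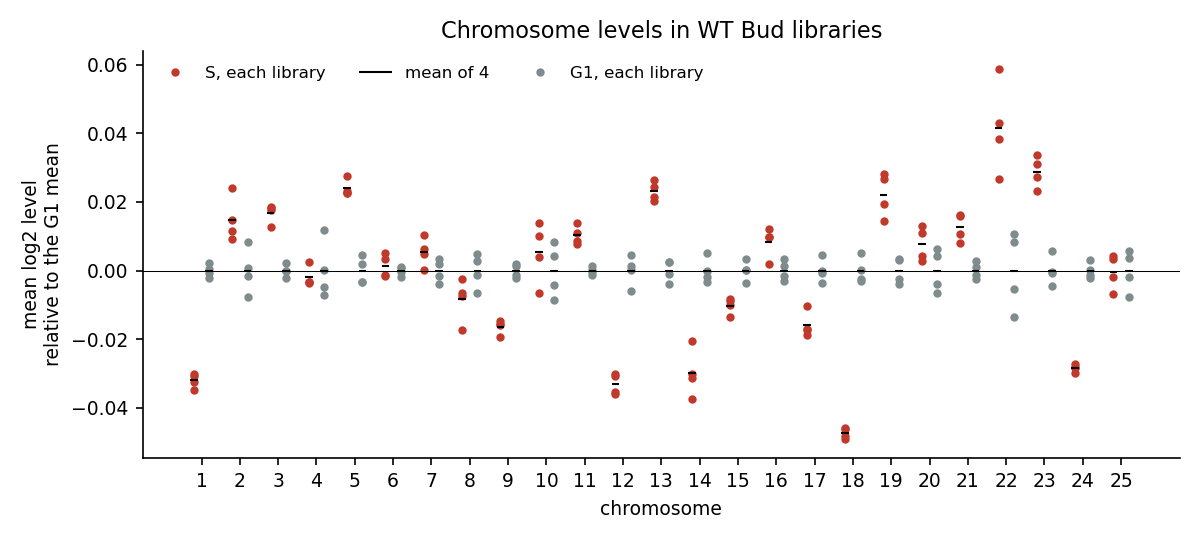
Mean log2 level of each of the 25 chromosomes relative to all windows and to the G1 mean (y axis) in WT Bud libraries. Points are single libraries, S left of G1 for each chromosome, and bars are means of 4. Chromosome 22 is highest at 0.0417 and chromosome 18 lowest at -0.0473.

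Chromosome levels in WT Bud were set against those of WT 24 hpf by an exact permutation test of same-numbered S minus G1 differences, a test chosen after the levels were seen. The S minus G1 level differed between the stages for 20 of 25 chromosomes (80%; adjusted p under 0.05) and between the genotypes at Bud for 15 (60%). Chromosome 24 had -0.0283 in WT Bud and 0.00111 in WT 24 hpf, and chromosome 18 had -0.0473 in WT Bud and -0.0223 in WT 24 hpf (adjusted exact permutation p = 0.0357 each). Chromosome 22 had 0.0417 in WT Bud and 0.0485 in WT 24 hpf, which did not differ beyond the spread of the libraries (adjusted exact permutation p = 0.248). In WT 24 hpf itself 15 chromosomes differed between S and G1 (60%). In omf201 Bud 13 had an unadjusted exact permutation p under 0.05 and 0 passed after adjustment (0%); since the smallest possible p is 0.0286, so few at that limit cannot pass over 25 chromosomes, and the 0 is no measure of a smaller effect.

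The largest difference between stages was on chromosome 4, whose level was -0.00188 in WT Bud and -0.0797 in WT 24 hpf (adjusted exact permutation p = 0.0357). Its long arm is known for its repeats and heterochromatin. At Bud the chromosome was split: windows from 28 Mb on, 1808 in all, had levels of -0.0850, -0.0949, -0.0874 and -0.0552 in S replicates 1 to 4 relative to all other windows, against -0.0250 to 0.0277 in G1. Windows before 28 Mb had 0.0513, 0.0572, 0.0528 and 0.0414 in S, against -0.00527 to 0.00841 in G1. Both parts differed from G1 without overlap (exact permutation p = 0.0286), in opposite directions. Over windows of the usual 60 kb width alone the long arm stood at -0.0359, less than its -0.0806 over all its windows (exact permutation p = 0.0286 in both). On the long arm 7.30% of windows were called early and 46.6% late, and before it 38.0% were early and 16.9% late. At 24 hpf the long arm stood at -0.296 ± 0.00860 and was lower than at Bud by 0.216 (exact permutation p = 0.0286), while the rest of the chromosome had 0.0507 in WT Bud and 0.0624 in WT 24 hpf (exact permutation p = 0.0571). In omf201 Bud the long arm had -0.0620 ± 0.0102, and the difference of -0.0186 from WT Bud did not pass (exact permutation p = 0.0857).

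Position along a chromosome went with timing in an uneven way. The outer 5 Mb of all chromosomes, 20173 windows, lay below the interior by -0.0124, -0.0195, -0.0175 and -0.0126 in S replicates 1 to 4, against -0.00123 to 0.00212 in G1 (mean difference -0.0155; exact permutation p = 0.0286). The direction turned for the outer 2 Mb, which lay 0.00284 above the rest (exact permutation p = 0.286). Split by distance from the nearer end, 8 of 9 classes differed between S and G1 (88.9%; exact permutation test, adjusted p = 0.0321). Relative to all windows, the outermost 1 Mb was early at 0.0363 ± 0.00584, the next 1 Mb was late at -0.0250 ± 0.00389, and the class from 3 to 5 Mb was late at -0.0350 ± 0.00446 (SD, n = 4). The class from 2 to 3 Mb had 0.00676 ± 0.00627 and did not pass (adjusted exact p = 0.0571).

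Farther in, the classes from 5 to 7.5 Mb and from 7.5 to 10 Mb had -0.0123 ± 0.000750 and -0.0166 ± 0.00314. The class from 10 to 15 Mb was late at -0.0333 ± 0.00145, that from 15 to 20 Mb had 0.00792 ± 0.00144, and windows more than 20 Mb from an end were early at 0.0379 ± 0.00246. Early windows made up 36.7% of the outermost 1 Mb and 38.7% of windows over 20 Mb from an end, against 22.1% of those at 10 to 15 Mb. The outermost 1 Mb and windows over 20 Mb from an end thus had the highest levels. The lowest were in the classes from 3 to 5 Mb and from 10 to 15 Mb. Not all classes between the ends and the centre were late, since those from 2 to 3 Mb and from 15 to 20 Mb lay slightly above 0. Longer chromosomes hold more windows over 20 Mb from an end, so chromosomes do not weigh alike in that class. Position was not compared within chromosomes. In omf201 Bud the outer 5 Mb lay below the interior by -0.0392 ± 0.00648 (exact permutation p = 0.0286), and in WT 24 hpf by -0.00713 ± 0.00580 (exact permutation p = 0.114).

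**Figure D5:**
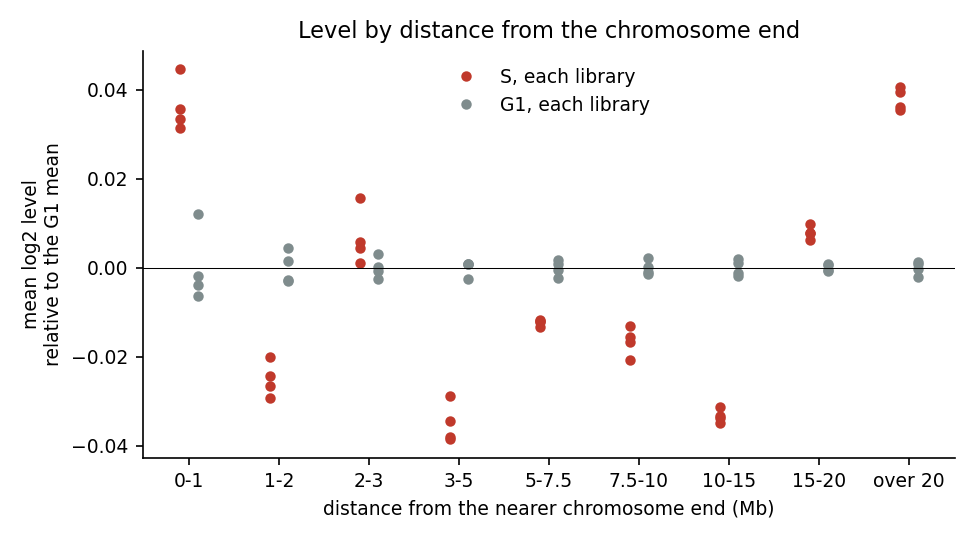
Mean log2 level relative to all windows and to the G1 mean (y axis) by distance from the nearer chromosome end in Mb (x axis), 1 point per WT Bud library, S left of G1. S levels are above 0 in the outermost 1 Mb (0.0363) and beyond 20 Mb (0.0379), and below 0 from 3 to 15 Mb.

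The amplitude of the WT Bud S profiles lay between those of the other S profiles they were set against. The amplitude was 0.116, 0.120, 0.117 and 0.103 in WT Bud S replicates 1 to 4, against 0.180, 0.167, 0.165 and 0.170 in WT 24 hpf S and 0.0746, 0.0672, 0.0734 and 0.0749 in omf201 Bud S. The groups did not overlap. WT Bud lay below WT 24 hpf by -0.0567 and above omf201 Bud by 0.0413 (exact permutation p = 0.0286 each, 0.0286 after adjustment over both). An S to G1 ratio also depends on which nuclei each sort took. How far sorting set the differences between stages and genotypes was not tested. The sorting protocol names a later age than 24 hpf for a sorter, and the age of the labels was used.

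Window by window, 30327 windows (25.3%) had an S to G1 ratio that differed between WT Bud and WT 24 hpf in edgeR's interaction test. The ratio was higher in WT Bud in 15175 and lower in 15152. The split moved with the scaling, to 13827 higher and 16639 lower with TMM and 10411 higher and 14743 lower with DESeq2. Between WT Bud and omf201 Bud, 9623 windows (8.01%) differed, 3976 higher (3.31%) and 5647 lower (4.70%) in WT Bud. Of the higher ones 3491 were called early in WT Bud, and of the lower ones 5445 were called late there. Those calls share the WT Bud libraries with the difference, so this split is no test. The share of 8.01% moved with the settings. It was 4.86% without WT Bud S replicate 2, 12.2% with the replicate number as a block and 1.36% with DESeq2. With DESeq2, 487 windows were higher and 1150 lower in WT Bud.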

How the data were processed

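Nuclear DNA was sequenced. The submitters' processing notes name fastp, BWA, Picard and GRCz11, and the series' design text RepliTimer v1.0.11. The authors deposited whole-number counts per window for every library, without normalisation; the log2 smoothed ratios the authors deposited served only as an alternative profile. Members and region definitions were chosen with earlier results of these data known.

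Counts were tested with edgeR 4.0.16 (R 4.3.3; quasi-likelihood, library total as offset, mean count of at least 50, Benjamini-Hochberg). Other values are means of log2 mean-scaled counts per library, compared by two-sided exact permutation tests (scipy 1.17.1, numpy 2.4.6, pandas 2.3.3). Each fit held only the groups compared. Domains were runs of at least 5 called windows with starts at most 20 kb apart. Smoothing used a cubic spline (penalty 1e+16 bp cubed, broken at gaps over 200 kb). Regions named are the 5 longest early and late domains, the 5 highest peaks and lowest valleys and the 3 highest and lowest chromosomes. Those that changed side by 24 hpf, the split of chromosome 4 and the distance classes were added after seeing values. Same-numbered S and G1 libraries deviated together (r = 0.271 to 0.506 for the 4 numbers, -0.283 to 0.0602 for others), so the numbers were taken to pair the samples. The window test was tested on simulated data. It called 10 of 100 windows changed by 0.15 log2, 99 of 100 changed by 0.3 log2 and 6 of 119882 unchanged windows. Far fewer windows were changed there than the 58.2% called in the data, which makes the adjustment stricter. Simulated windows were also drawn independently with a common dispersion, while windows of the data overlap. These rates, that of unchanged windows included, therefore do not carry over. Alternatives were TMM, DESeq2 1.42.0, other filters, a replicate block, left-out libraries and other definitions of domains and peaks. Values at genes, gene density and base composition were planned and are not analysed here, since gene positions on GRCz11 were not used. Counting errors cover counting only, while values after ± are SDs between the 4 libraries of a group.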

Additional observations from a re-analysis of the deposited data

Results flagged for a closer look

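The amplitude of WT Bud S profiles differed from that of other S profiles under the same contrast to G1, by -0.0567 against WT 24 hpf and by 0.0413 against omf201 Bud. The share of windows whose S to G1 ratio differed was 25.3% between WT Bud and WT 24 hpf and 8.01% between WT Bud and omf201 Bud.

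In 4 of 100 groups of 4 libraries that were examined, 1 library stood far from the rest by Dixon's test, where chance gives about 5%. In the early domain on chromosome 22 from 9940000, WT 24 hpf S replicate 2 had a log2 ratio of 0.336, against 0.299 to 0.305 in the other libraries of its group. In the early domain on chromosome 22 from 20100000, omf201 Bud G1 replicate 1 had -0.0305, against 0.00678 to 0.0119. In the early domain on chromosome 20 from 34230000, WT Bud S replicate 4 had 0.147, against 0.185 to 0.190. The level of chromosome 5 was 0.0275 in WT Bud S replicate 2, against 0.0225 to 0.0233.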

How the results depend on the processing

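The share of windows called, 58.2%, was 57.7% with TMM, 46.0% with DESeq2, 57.1% in 1 fit of all groups and 51.0% to 56.8% with 1 library left out, and no window was called with the opposite sign under any of these. With DESeq2 early windows were 47.0% of calls, against 52.0% in the main test. With at least 20 windows in a run there were 566 early and 471 late domains, with medians of 350 and 370 kb, holding 30.5% of windows. Prominences of 0.05 and 0.2 gave 950 and 517 peaks. With the replicate block, edgeR called 60.6% of windows, and 12.2% differed between WT Bud and omf201 Bud, against 1.36% with DESeq2. With the G1 libraries of Bud and 24 hpf together as reference, the chromosome 14 early domain moved to 0.198 and the chromosome 8 late domain to -0.295. The cause of these moves was not tested.

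Tests over libraries were at their smallest p, so fewer libraries or sign flips of same-numbered pairs cannot pass: the smallest p is 0.0571 for 3 against 4 and 0.125 for 4 pairs. The count of 17 chromosomes is then 0 under the pairing, and 0 in every run with 1 library left out; edgeR on chromosome sums called 21, and 22 with a replicate block, the block version being added after seeing the data. Under the pairing the outer 5 Mb (-0.0155) and the chromosome 4 long arm (-0.0806) have the same values by construction and an exact sign-flip p = 0.125 each. Without pairing, the outer 2 Mb turned to 0.00284, and the long arm was -0.0359 over windows of the usual width. With 1 library left out the S minus G1 amplitude was 0.0851 to 0.0911, its difference from WT 24 hpf -0.0586 to -0.0531 and from omf201 Bud 0.0394 to 0.0449. The outer 5 Mb ranged from -0.0165 to -0.0142, the long arm from -0.0891 to -0.0714 and the share of windows differing from omf201 Bud from 4.86% to 9.01%. Gene starts, gene density and base composition were not run. Depth limits single windows, with a counting error of 3.68% to 5.57% per library.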
